A study of Homo sapiens with 24 samples.

Results

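The response of Huh-7 cells to melatonin was described over all genes of the array. Huh-7 is an established human liver cancer line that grew out of a well-differentiated hepatocellular carcinoma, carries a mutant p53 and still makes many liver proteins. It gave 6 of the 24 arrays of the study: 3 of melatonin-treated cells, labelled 24 h, and 3 of control cells, labelled 0 h. According to the methods, the treated cells received melatonin at a millimolar concentration and the controls were kept in the ethanol solvent for the same time, whereas by the labels the controls were taken at 0 h. If the labels hold, effects of culture time and of the solvent cannot be told apart from those of melatonin. The cells are 1 tumor line, and the methods call the 3 arrays of a group biological replicates without saying how they were grown apart, so p-values measure the spread between these arrays. The study treated 3 further cancer lines in the same way, HepG2 (liver), HGC-27 (stomach) and HCT-8 (colon and rectum), with 3 melatonin and 3 control arrays each. By the methods, Huh-7 and HepG2 cells grew in DMEM, and HGC-27 and HCT-8 cells in RPMI medium. Every probe set with exactly 1 gene symbol entered, and averaging these per gene gave 18244 genes.

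Melatonin is the night hormone of the pineal gland. It acts through a pair of membrane receptors, encoded by MTNR1A and MTNR1B, and the liver clears it from the blood by hydroxylation with cytochrome P450 enzymes of the CYP1 family followed by sulfation. A hepatocyte secretes most plasma proteins, makes cholesterol, lipoproteins and bile acids, breaks down amino acids and removes foreign compounds, and a liver cancer line joins parts of this program to continuous cell division.

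Values are log2 intensities, so a difference of 1 is a doubling, and levels were compared within a gene only. Over genes, the 6 arrays correlated at 0.998 within a group and at 0.975 to 0.977 with arrays of the other group. Some quality measures differed between the groups. The array medians over genes were 3.17 to 3.19 in control and 3.24 to 3.25 in melatonin-treated cells. The ACTB control probe sets compare the 3′ and 5′ ends of the transcript. They differed by 0.168 to 0.297 on the control arrays and by 0.300 to 0.426 on the melatonin arrays. On the first HepG2 melatonin array, which stood apart from all others, they differed by 8.34. The 23 background probe sets had a median of 1.02 in melatonin-treated and 1.08 in control cells, and all 23 were lower with melatonin. The part of the differences in ACTB ends and background in the small changes of genes was not tested. The measured hepatocyte markers lay between 6.21 and 11.31 in melatonin-treated cells and between 5.80 and 11.21 in control cells, with ALB (albumin) and AFP (alpha-fetoprotein) at the top. Markers of fibroblasts and stellate cells stayed at or below 1.82 in melatonin-treated and 2.02 in control cells. The 6 blood cell markers ranged from 0.94 (PTPRC) to 4.74 (CD68) in melatonin-treated cells and from 0.98 to 5.28 in control cells, and the 4 endothelial markers reached 2.58 and 3.94, both for PECAM1. Of the 4 biliary markers KRT19 (7.63 in melatonin-treated and 8.2 in control cells) and SOX9 (7.34 and 6.94) were high. KRT7 (1.54 and 1.7) and CFTR (1.01 and 1.28) were low. The part of these markers in the results was not tested. Of the gut epithelial markers, CDX2 and CDH17 were clearly present. CDX2 was at 7.16 ± 0.05 in melatonin-treated and 7.62 ± 0.02 in control cells (log2 intensity, mean ± SD, n = 3 each). CDH17 was at 7.09 ± 0.06 in melatonin-treated and 7.28 ± 0.01 in control cells. VIL1 was at 4.33 in melatonin-treated and 5.18 in control cells. CDX1 (1.94 and 2.13), KRT20 (1.8 and 1.77) and LGALS4 (1.45 and 1.46) lay below the median level of all genes, 3.22.

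Melatonin-treated Huh-7 cells differed from control cells over a large part of the array. With limma and a Benjamini-Hochberg adjustment over the 18244 genes, 4336 genes (23.8%) were higher and 5004 (27.4%) were lower at an adjusted p under 0.05, 9340 genes or 51.2% in all. A gene is called changed here when it passed this test. Changes of at least 1.5-fold were found in 1656 higher and 1290 lower genes, of at least 2-fold in 591 higher and 428 lower genes, and of at least 4-fold in 71 higher and 33 lower genes. In 59.5% of all genes no melatonin array fell within the range of the control arrays or the reverse. Separate arrays of a named gene are read against this share. The median log2 fold change of all genes was -0.06 and the middle of the distribution ran from -0.21 to 0.16, and changes of a gene list are read against these values. All gene lists were drawn up with earlier results of these data known, so their shares and medians are descriptions and not tests. When each array was centred on its own median, 3795 genes were called higher and 7039 lower, so that 35% of the called genes were higher, against 46.4% as deposited, and the split between higher and lower genes depends on the scale. Some genes were read only by probe sets of a design that may bind several transcripts, among them ATF4, FOXO3, APOE, KRT8, KRT18, ENO1, MAPK3, ORC1, CENPH, TAF1D, GAPDH and ACTB, and their values are less certain.

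The largest rises included genes of growth restraint, secretion and the cytoskeleton. SESN3, a sestrin that restrains the growth kinase mTORC1, was at 6.04, 5.99 and 6.06 in melatonin-treated cells, against 2.39, 2.34 and 1.98 in control cells (log2 fold change 3.79, standard error 0.1, adjusted p = 1.33e-07). GSN, which encodes the actin-severing protein gelsolin, was at 7.81, 7.88 and 7.85 in melatonin-treated cells, against 4.11, 4.37 and 3.74 in control cells (13.7-fold, log2 fold change 3.78, standard error 0.14). The groups were far apart for each gene: the control arrays of SESN3 lay below 3.22, the median level of all genes, and those of GSN spread more widely than the treated arrays. SERPINI1 encodes neuroserpin, an inhibitor of plasminogen activators, and was at 7.96, 7.99 and 8.0 in melatonin-treated cells, against 4.54, 4.71 and 4.34 in control cells (log2 fold change 3.45, standard error 0.09). EPPK1, the keratin-binding protein epiplakin, rose by 3.03, SLC44A2, a choline transporter-like protein, by 2.98, and the calcium-dependent protease gene CAPN5 by 2.96 on the log2 scale. TP53I3, a quinone reductase-like enzyme known as a p53 target, was already well expressed and was at 8.79, 8.85 and 8.92 in melatonin-treated cells, against 5.93, 6.04 and 6.07 in control cells (log2 fold change 2.84, adjusted p = 1.09e-07). DDIT4, also called REDD1, a stress-induced brake on mTORC1, was at 8.95, 8.93 and 8.96 in melatonin-treated cells, against 6.08, 6.23 and 6.12 in control cells (log2 fold change 2.81, adjusted p = 9.77e-08). Further genes among the 20 largest rises were LAMP3, a lysosomal membrane protein (2.71), TRPM4, a calcium-activated cation channel (2.68), CLGN, a chaperone of the endoplasmic reticulum (2.67), GPR37, an orphan receptor (2.63), and the ciliary and centrosomal genes RSPH3 (2.73) and CEP19 (2.58). The histone genes H2BC5 (2.77) and H2AC6 (2.68) were also among them, and since histone genes are near-identical copies their probe sets may read several genes.

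The largest falls included secreted, epithelial and liver-enriched genes. SAA4, a serum amyloid carried on lipoproteins, was at 2.56, 2.65 and 2.37 in melatonin-treated cells, against 5.79, 5.6 and 5.97 in control cells (log2 fold change -3.26, standard error 0.1, adjusted p = 2.16e-07). CPB2 encodes a plasma carboxypeptidase that slows the breakdown of clots and was at 2.02, 1.84 and 1.64 in melatonin-treated cells, against 5.34, 4.9 and 5.03 in control cells (log2 fold change -3.26, standard error 0.13). In melatonin-treated cells these liver products were below the median level of all genes, and no treated array came within 2 log2 units of a control array. NOX1, a catalytic subunit of the superoxide-producing NADPH oxidases, was at 2.6, 2.54 and 2.61 in melatonin-treated cells, against 5.51, 5.32 and 5.25 in control cells (log2 fold change -2.78). PHLDA2, an imprinted growth-restraining gene, fell by 2.7, AP1M2, an adaptor of epithelial protein sorting, by 2.49, and CCDC86, a nucleolar protein, fell by 2.48. KRT15, a keratin, fell by 2.53, and DEFB1, an antimicrobial defensin, by 2.32. PI3, the elastase inhibitor elafin, fell by 2.23. Other large falls were in the acetyltransferases of cysteine conjugates NAT8 (-2.38) and NAT8B (-2.65), neighbouring genes of similar sequence, in the chemokine receptor CCR6 (-2.31), in the lipoprotein receptor LRP8 (-2.22) and in the folate carrier SLC19A1 (-2.22).

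**Figure D1:**
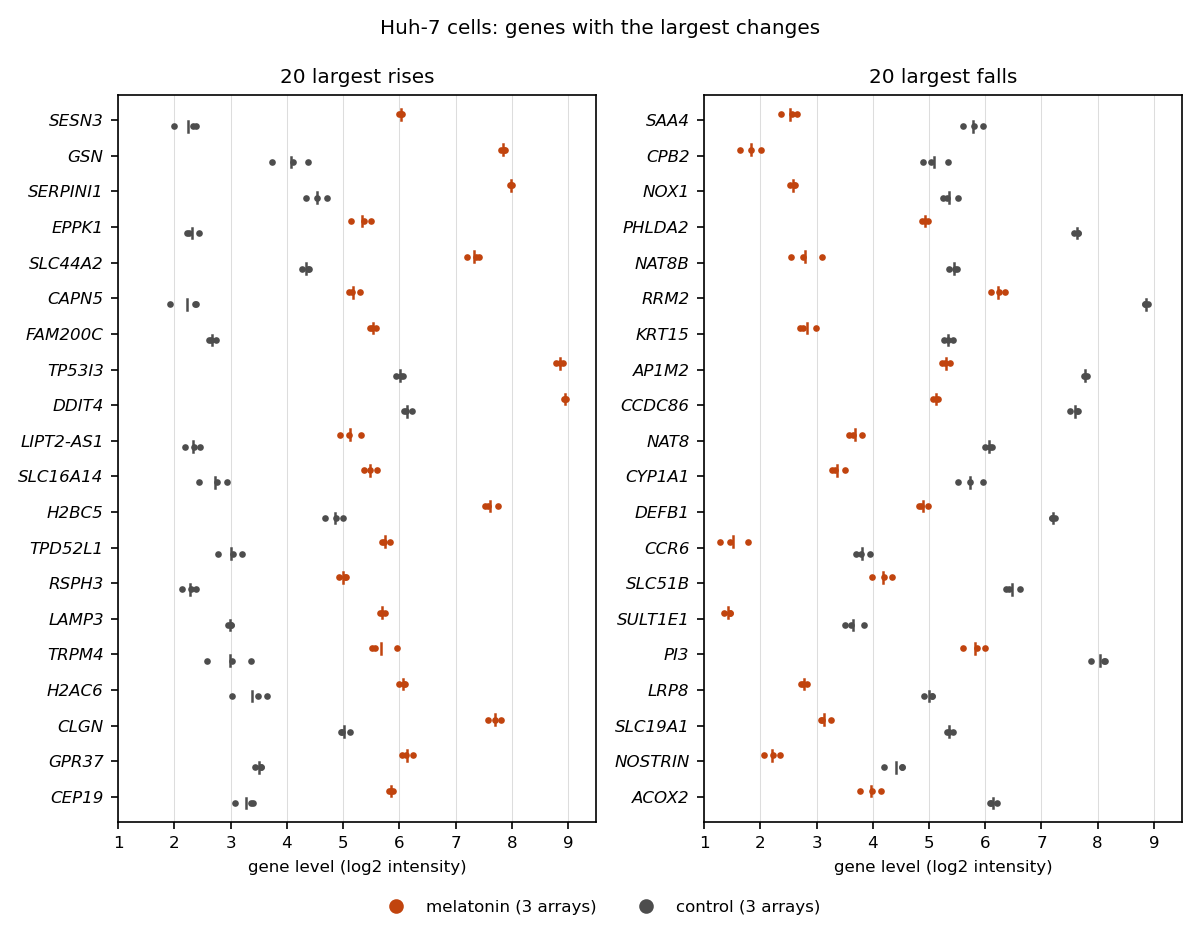
The 20 largest rises (left) and the 20 largest falls (right) among called genes of Huh-7 cells; the horizontal axis is the gene level (log2 intensity), each dot is 1 array, short vertical bars are group means, and melatonin-treated cells are drawn above control cells. In every gene the 3 melatonin arrays and the 3 control arrays are separate, because only such genes were drawn from. Their higher group mean was also required to be at or above the median level of all genes.

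Genes of DNA replication were lower with melatonin nearly throughout. Replication starts when the origin recognition complex and CDC6 load the MCM2 to MCM7 helicase, which is then activated by CDC45 and the GINS complex. Of 60 measured replication genes, 49 fell and 5 rose, with a median log2 fold change of -0.518, against a median of -0.06 and shares of 27.4% lower and 23.8% higher over all genes. MCM2, a subunit of the helicase ring, was at 6.17, 6.03 and 5.87 in melatonin-treated cells, against 7.8, 7.78 and 7.77 in control cells (log2 fold change -1.76, standard error 0.08, adjusted p = 6.5e-07). The other subunits fell as well, MCM3 by 1.54, MCM4 by 1.47, MCM5 by 1.73, MCM6 by 1.44 and MCM7 by 1.56. The arrays of the groups did not overlap for any of the 6 helicase genes, a state found in 59.5% of all genes. POLE2, a subunit of the leading strand polymerase, had the largest fall of the list and was at 4.89, 5.11 and 4.87 in melatonin-treated cells, against 6.99, 6.96 and 6.98 in control cells (log2 fold change -2.02). The initiation factors MCM10 (-1.9), GINS2 (-1.87), CDC45 (-1.73) and ORC1 (-1.41) fell as well, as did PCNA, the sliding clamp (-0.4). The 5 genes that went the other way were POLD4, a small subunit of polymerase delta, which was at 8.99, 8.96 and 9.09 in melatonin-treated cells, against 7.17, 7.25 and 7.2 in control cells (log2 fold change 1.81), and RNASEH2C, RPA3, ORC4 and RFC1, which rose by at most 0.43.

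Promoter sequences of replication genes are shown because E2F factors are known to act at such sites in the S phase program. The letters TTTCCCGC or TTTGGCGC, read on either strand, were searched in the 250 bases before the annotated start (RefSeq, GRCh38.p14) of the 14494 measured genes with an entry. They occurred in 13 of 52 replication promoters (25%), in 383 of all 14494 (2.64%), in 3.47% of the genes called lower and in 2.63% of the genes called higher. Of the replication genes with a match, 3 with large falls are printed as 120 bases of the gene's strand, 5′ to 3′, with the match in capitals. The GINS2 stretch is chr16:85688955-85689074 (minus strand), the MCM7 stretch chr7:100101521-100101640 (minus strand) and the MCM3 stretch chr6:52284853-52284972 (minus strand).
GINS2: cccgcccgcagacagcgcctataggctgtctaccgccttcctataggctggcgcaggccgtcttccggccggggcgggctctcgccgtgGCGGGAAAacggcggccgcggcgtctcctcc
MCM7: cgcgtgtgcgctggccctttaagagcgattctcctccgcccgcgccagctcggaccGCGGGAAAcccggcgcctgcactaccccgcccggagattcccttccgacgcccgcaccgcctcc
MCM3: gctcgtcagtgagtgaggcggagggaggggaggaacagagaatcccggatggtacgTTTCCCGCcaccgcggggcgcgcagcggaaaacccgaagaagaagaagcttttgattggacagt
The 13 replication genes with the letters had a median log2 fold change of -0.79 and 12 of them were called, and the 39 without had a median of -0.50 with 34 called. The letters describe these windows and were not tested against the response.

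Mitotic genes were lower in a still larger share. Of 81 genes of mitosis, kinetochore and spindle, 74 fell and 3 rose, with a median log2 fold change of -0.708. CDC25A, the phosphatase that activates cyclin-dependent kinases, was at 4.88, 4.94 and 4.83 in melatonin-treated cells, against 6.52, 6.51 and 6.54 in control cells (log2 fold change -1.64, adjusted p = 1.95e-07). HJURP, the chaperone that places the centromeric histone CENPA, fell by 1.62, and CENPA itself by 1.34. Cyclin A2 (CCNA2) fell by 1.55, the kinesin genes KIF22, KIF23 and KIFC1 by 1.61, 1.47 and 1.44, and the kinetochore gene SPC25 by 1.58. The mitotic kinases AURKB (-1.3), AURKA (-1.23) and PLK1 (-1.27) fell too. MKI67, the proliferation antigen Ki-67, was at 4.02, 3.98 and 3.79 in melatonin-treated cells, against 5.05, 4.99 and 5.0 in control cells (log2 fold change -1.08). The arrays of the groups did not overlap for these genes, as in 59.5% of all genes, and the treated cells were lower in each. The exceptions were CKAP2 (0.35), CENPH (0.27) and CDC25B (0.21), which rose. With arrays centred on the spike-in probe sets, CENPH (adjusted p = 0.0879) and CDC25B (0.205) did not pass, nor did CDC25B in a joint fit of all 4 lines (0.537).

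The letters TTTGAA, the core of a cell cycle element (CHR) known from late cell cycle genes, were found in 30 of 70 mitotic promoters (42.9%), in 1562 of all 14494 (10.8%) and in 0 of 52 replication promoters. Of the mitotic genes with the letters 29 of 30 were called, with a median log2 fold change of -0.84, and of those without 37 of 40, with a median of -0.69. Of the mitotic genes with a match, 3 with large falls are printed in the same way, HJURP from chr2:233854584-233854703 (minus strand), SPC25 from chr2:168890561-168890680 (minus strand) and NCAPG, a condensin subunit that fell by 1.52, from chr4:17810859-17810978 (plus strand).
HJURP: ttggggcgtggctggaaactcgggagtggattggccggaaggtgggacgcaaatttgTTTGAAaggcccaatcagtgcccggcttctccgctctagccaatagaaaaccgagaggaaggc
SPC25: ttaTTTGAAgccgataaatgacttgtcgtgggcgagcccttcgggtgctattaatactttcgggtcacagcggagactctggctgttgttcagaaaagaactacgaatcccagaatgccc
NCAPG: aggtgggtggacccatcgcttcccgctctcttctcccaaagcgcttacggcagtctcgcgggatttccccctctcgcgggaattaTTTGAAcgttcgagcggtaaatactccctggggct
In HJURP and NCAPG the match lay 111 and 35 bases before the start, and in SPC25 it lay 247 bases before it.

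Genes that supply the building blocks of DNA and RNA were mostly lower. Of 39 genes of nucleotide synthesis, 27 fell (69.2%, against 27.4% of all genes) and 8 rose (20.5%, against 23.8%), with a median log2 fold change of -0.626. RRM2, the S phase subunit of ribonucleotide reductase, was at 6.34, 6.24 and 6.1 in melatonin-treated cells, against 8.89, 8.84 and 8.83 in control cells (6.16-fold lower, log2 fold change -2.62, standard error 0.07). RRM2B, the alternative subunit, went the opposite way and was at 3.79, 3.62 and 3.51 in melatonin-treated cells, against 2.49, 2.52 and 2.41 in control cells (log2 fold change 1.17, standard error 0.08). Thus the groups were separate for each subunit and in opposite order. MTHFD1, an enzyme of the folate cycle, fell by 1.83, the thymidine kinase TK1 by 1.47, and TYMS, the thymidylate synthase that 5-fluorouracil inhibits, by 0.94. The pyrimidine enzymes DHODH (-1.36) and CTPS1 (-1.31) and the purine enzyme PAICS (-1.22) fell as well. SAMHD1, which breaks down deoxynucleotides, rose by 0.67, and the mitochondrial folate enzyme MTHFD2 by 0.68.

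Of 47 cyclins, kinase inhibitors and genes of the E2F and RB families, 24 fell (51.1%, against 27.4% of all genes) and 12 were not called. The 11 that rose made up 23.4%, near the 23.8% of all genes. E2F8, a repressor of the family, fell by 1.95, and falls were also found in the S phase kinase CDK2 (-1.2), the E2F partner TFDP1 (-1.03), E2F2 (-1.02) and E2F1 (-0.75). The INK4 inhibitor CDKN2B was at 4.44, 4.61 and 4.43 in melatonin-treated cells, against 3.21, 3.09 and 3.04 in control cells (log2 fold change 1.38), and its relative CDKN2D rose by 1.16. CCNG2, a cyclin linked to cell cycle arrest, rose by 1.29, CDKN1B (p27) by 0.45 and the retinoblastoma relative RBL2 by 0.76. CDKN1A (p21), the best known p53-induced inhibitor, was slightly lower, at 5.54 ± 0.05 in melatonin-treated and 5.81 ± 0.09 in control cells (log2 fold change -0.27, adjusted p = 0.00621). Of 38 checkpoint and recombination genes, 21 fell (55.3%, against 27.4% of all genes), led by EXO1 (-1.36) and FANCB (-1.12). Another 7 rose (18.4%, against 23.8%), led by the clamp loader RAD17 (1.49) and the kinase ATM (0.56). The checkpoint kinase CHEK1 fell by 0.66. ATR, the kinase above it, did not pass, at 5.03 ± 0.04 in melatonin-treated and 5.16 ± 0.05 in control cells (adjusted p = 0.0662). ATR was called lower with genes below the 25th percentile left out (adjusted p = 0.0447). The same held with quantile normalization again (0.0179) and with arrays centred on their median (0.0151).

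**Figure D2:**
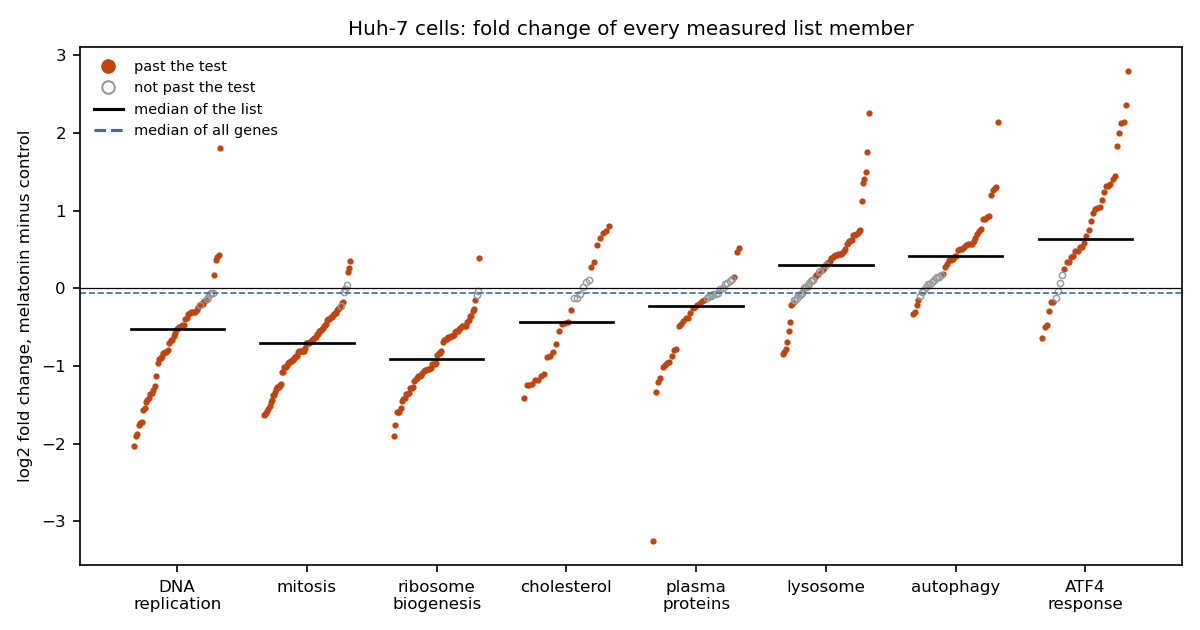
Log2 fold change (melatonin minus control, vertical axis) of every measured member of 8 gene lists in Huh-7 cells, sorted within each list; filled dots passed the test, open dots did not, black bars are list medians and the dashed line is the median of all genes, -0.06. The replication, mitosis and ribosome biogenesis medians lie below -0.5, and the lysosome, autophagy and ATF4 medians lie above 0. The lists were drawn up with earlier results of these data known.

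Ribosome assembly showed the most uniform change of the lists in the plot of gene lists. Of 64 genes that make and process ribosomal RNA, 61 fell and 1 rose, with a median log2 fold change of -0.909. UTP20, a component of the small subunit processome, was at 4.45, 4.17 and 4.15 in melatonin-treated cells, against 6.15, 6.1 and 6.22 in control cells (log2 fold change -1.9, adjusted p = 7.71e-07). RRP9 and NOP2, which act on ribosomal RNA, fell by 1.77 and 1.6, and DKC1, which acts in its pseudouridylation, fell by 1.36. POLR1B, a subunit of RNA polymerase I, fell by 1.02 and the nucleolar protein NCL by 0.55. The exception that rose was TAF1D (0.39), and MYC, a known driver of these genes, fell by 0.36. The genes of the finished cytosolic ribosome behaved differently, with a median log2 fold change of 0.071. Of 67 genes 16 were higher (23.9%, near the 23.8% of all genes) and 7 lower (10.4%, against 27.4%). RPS26 (-0.96) and RPS14 (-0.68) had the largest falls among them, but the probe set of RPS14 with the highest mean gave 0.07, and many processed copies of these genes make their probe sets uncertain. The mitochondrial ribosome followed the assembly factors, with 52 of 74 genes lower (median -0.397), led by MRPS28 (-1.58) and MRPL27 (-1.2).

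Genes of RNA splicing, nuclear transport and protein turnover were lower too. Of 87 splicing genes 59 fell and 6 rose, among them DDX46, a helicase of the early spliceosome (-2.02), and the splicing regulators SRSF7 (-1.74) and SRSF1 (-1.66), while SLU7, a factor of the second splicing step, rose by 0.59. Of 55 genes of the nuclear pore and its carriers, 40 fell, with NUP93, a scaffold of the pore, at 6.72, 6.62 and 6.6 in melatonin-treated cells, against 7.72, 7.7 and 7.81 in control cells (log2 fold change -1.1). Of 41 proteasome genes 32 fell, with PSME3, an activator, at -0.99 and the base ATPase PSMC3 at -0.88. Cytosolic and mitochondrial heat shock proteins were more often lower, with 26 of 43 lower (60.5%, against 27.4% of all genes) and 9 higher (20.9%, against 23.8%). CHORDC1, a partner of HSP90, fell by 1.85, and the mitochondrial chaperonin HSPE1 (-0.96), HSP90AA1 (-0.85) and the CCT subunit CCT6A (-0.84) were lower too. The stress-inducible HSPA1A was at 9.14, 9.2 and 9.1 in melatonin-treated cells, against 8.19, 8.4 and 8.12 in control cells (log2 fold change 0.91), and DNAJB4 rose by 1.4. HSPA1A and its near-identical neighbour HSPA1B (0.87) cannot be separated with certainty by their probes.

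**Figure D3:**
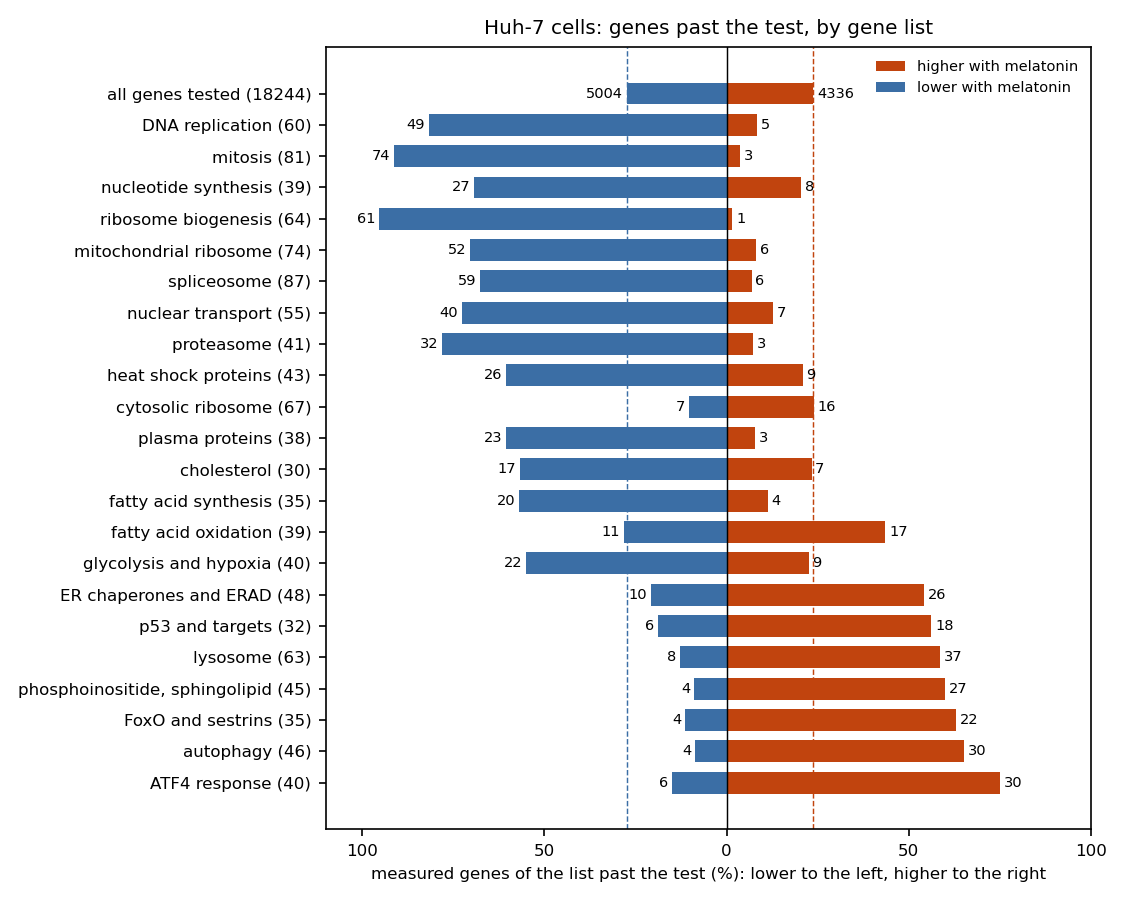
Share of measured genes (horizontal axis, percent) past the test and lower (left, blue) or higher (right, red) with melatonin in Huh-7 cells, for all genes and 22 gene lists; the number of measured genes is in brackets, the number past the test stands beside each bar, and dashed lines mark the shares over all genes, 27.4% lower and 23.8% higher. Mitosis is lower in 74 of 81 genes and ribosome biogenesis in 61 of 64, and the ATF4 response is higher in 30 of 40. The lists were drawn up with earlier results of these data known.

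The amino acid stress program of the transcription factor ATF4 was higher. ATF4 is made when amino acids run short or the endoplasmic reticulum is stressed, and it induces amino acid synthesis and transport. Of 40 genes 30 rose and 6 fell, with a median log2 fold change of 0.629. ATF4 itself was at 11.38, 11.28 and 11.3 in melatonin-treated cells, against 10.16, 10.18 and 10.21 in control cells (log2 fold change 1.14, adjusted p = 8.02e-07). DDIT3, the stress factor CHOP, was at 6.12, 6.1 and 6.4 in melatonin-treated cells, against 4.07, 4.04 and 4.08 in control cells (log2 fold change 2.14). CTH, which makes cysteine, was at 7.17, 7.2 and 7.25 in melatonin-treated cells, against 5.27, 5.1 and 4.87 in control cells (log2 fold change 2.13). For these the treated arrays were about 1 to 2 log2 units above the controls with no overlap. The lipoprotein receptor VLDLR rose by 2.36, the stress protein NUPR1 by 2.0, the glutathione-degrading CHAC1 by 1.45, the asparagine synthetase ASNS by 1.4 and the cystine transporter SLC7A11 by 1.34. The members that fell included SLC7A5, a transporter of large amino acids (-0.64), and the proline enzymes ALDH18A1 (-0.5) and PYCR1 (-0.48).

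The composite site TGATGNAA, known as a binding element of ATF4 with C/EBP partners, occurred in 4 of 33 promoters of this list (12.1%) and in 324 of all 14494 (2.24%), with 1.35% in genes called higher. The CHAC1 stretch is chr15:40953221-40953340 (plus strand) and the ASNS stretch chr7:97872413-97872532 (minus strand), printed as before with the match, on either strand, in capitals.
CHAC1: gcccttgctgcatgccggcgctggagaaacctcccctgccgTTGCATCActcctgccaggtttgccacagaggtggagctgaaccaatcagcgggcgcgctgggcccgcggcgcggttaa
ASNS: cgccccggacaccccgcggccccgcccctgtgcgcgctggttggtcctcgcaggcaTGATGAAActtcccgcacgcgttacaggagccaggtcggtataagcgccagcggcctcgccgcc
The 4 genes with the letters were all called, with a median log2 fold change of 0.99, and the 29 without had a median of 0.68 with 26 called. A pair of further motifs went the other way. TCACGTGA, known from lysosomal promoters, was in 6 of 45 lysosome promoters (13.3%, against 1.32% of all), and these 6 genes had a median of 0.14 with 3 called, while the 39 without had a median of 0.23 with 27 called. GTAAACA, a FoxO motif, was in 2 of 31 promoters of the FoxO list (6.45%, against 2.14% of all), and these 2 had a median of -0.15, while the 29 without had a median of 0.45.

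The transfer RNA synthetases did not move as a block. Of 36 measured genes 14 rose and 17 fell. CARS1 (1.2), SARS1 (0.92) and AARS1 (0.82), cytosolic enzymes for cysteine, serine and alanine, had the largest rises. FARSA (-1.13) and FARSB (-1.0), the subunits of the phenylalanine enzyme, and EARS2 (-1.1), a mitochondrial enzyme, had the largest falls. Genes of protein folding in the endoplasmic reticulum were more often higher, 26 of 48, but by little (median 0.164). The oxidase ERO1B rose by 1.6, CCPG1, which sends parts of that organelle to autophagy, by 1.48, HERPUD1 by 1.06 and the stress sensor ATF6 by 0.95. The chief chaperone HSPA5 (BiP) was at 8.7 ± 0.04 in melatonin-treated and 8.38 ± 0.06 in control cells (log2 fold change 0.32, adjusted p = 0.0012), with 1 probe set called the other way.

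Sestrins and many FoxO targets were higher in Huh-7 cells, and p53 targets were divided. Of 35 genes of the FoxO list 22 rose and 4 fell (median log2 fold change 0.393). SESN2, which senses leucine for mTORC1, was at 7.18, 7.25 and 7.14 in melatonin-treated cells, against 5.36, 5.45 and 5.25 in control cells (log2 fold change 1.84), and SESN1 rose by 1.47. FOXO3 was at 7.05, 7.02 and 6.84 in melatonin-treated cells, against 5.68, 5.72 and 5.61 in control cells (log2 fold change 1.3), while FOXO1 rose by 0.6 and the upstream kinases AKT1 (-0.42) and AKT2 (-0.37) fell. PINK1, the kinase that marks damaged mitochondria, was at 6.26, 6.29 and 6.3 in melatonin-treated cells, against 4.18, 4.12 and 4.13 in control cells (log2 fold change 2.14). Of 32 p53 targets and partners 18 rose and 6 fell. TP53INP1, a stress-induced autophagy protein, rose by 2.5, the repair factor DDB2 by 1.32 and the cell death gene BBC3 (PUMA) by 1.19. The median of the list was 0.16, and 8 of its genes were not called. AEN, a nuclease, fell by 2.0. SESN1, SESN2 and DDIT4 stand in more than 1 of these lists, so the counts share members.

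Genes of autophagy and the lysosome were higher, with few exceptions in autophagy. Autophagy wraps cell contents in membranes and delivers them to the lysosome for breakdown. Of 46 autophagy genes 30 rose and 4 fell, with a median log2 fold change of 0.415. MAP1LC3B, which coats the autophagosome, was at 7.98, 8.0 and 7.97 in melatonin-treated cells, against 6.73, 6.66 and 6.65 in control cells (log2 fold change 1.3). ULK1, the starting kinase, was at 4.88, 4.66 and 4.62 in melatonin-treated cells, against 3.45, 3.3 and 3.55 in control cells (log2 fold change 1.29), and the lipid kinase PIK3C3 rose by 1.2. BNIP3L, a receptor for the removal of mitochondria, rose by 1.27, and FKBP8, which holds BCL2 at mitochondria, fell by 0.33. Of 63 lysosomal genes 37 rose and 8 fell (median 0.297). CTSL, the protease cathepsin L, was at 8.64, 8.83 and 8.83 in melatonin-treated cells, against 6.52, 6.53 and 6.46 in control cells (log2 fold change 2.26, adjusted p = 1.44e-07). FUCA1 and NEU1, which remove fucose and sialic acid from glycans, rose by 1.76 and 1.4, and SMPD1, the acid sphingomyelinase, by 1.5. The proteases CTSC (-0.83) and CTSH (-0.55) and the galactosidase GLA (-0.85) fell. Enzymes of phosphoinositides and sphingolipids rose in 27 of 45 cases, whereas SPHK1, which makes sphingosine 1-phosphate, fell by 1.07.

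Many acute phase proteins fell, while the abundant liver products ALB and AFP did not pass the test. ALB was at 11.27, 11.29 and 11.35 in melatonin-treated cells, against 11.24, 11.22 and 11.18 in control cells (adjusted p = 0.144) and AFP was at 10.57, 10.6 and 10.62 in melatonin-treated cells, against 10.46, 10.57 and 10.57 in control cells (adjusted p = 0.311). Of 38 acute phase and carrier genes 23 fell and 3 rose (median log2 fold change -0.224). Besides SAA4, KNG1, the precursor of bradykinin, was at 4.73, 4.58 and 4.61 in melatonin-treated cells, against 6.03, 5.91 and 5.97 in control cells (log2 fold change -1.33). The orosomucoid ORM2 fell by 0.96, SAA1 and SAA2 by 0.95 and 1.02, ceruloplasmin (CP) by 0.87 and transthyretin (TTR) by 0.42. ORM1 and ORM2, and SAA1 and SAA2, are near-identical pairs that share probes in part. PON3, a lipoprotein-bound lactonase (0.52), and SERPINF1, an inhibitor of vessel growth (0.47), rose.

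Coagulation and complement genes changed gene by gene. Of 26 coagulation genes 11 fell (42.3%, against 27.4% of all genes) and 6 rose (23.1%, against 23.8%). SERPIND1, heparin cofactor II, was at 3.04, 3.07 and 3.26 in melatonin-treated cells, against 5.04, 4.67 and 4.69 in control cells (log2 fold change -1.68), and of the fibrinogen chains FGA fell by 0.84 and FGG rose by 0.32. F10, the factor X gene, was at 5.85, 5.9 and 6.01 in melatonin-treated cells, against 4.76, 4.86 and 4.57 in control cells (log2 fold change 1.19), and SERPINC1, antithrombin, rose by 0.62. Factor X and antithrombin were thus higher on every treated array, and heparin cofactor II lower. Of 26 complement genes 11 fell (42.3%, against 27.4% of all genes), led by the mannose-binding lectin MBL2 (-1.18), C1S (-0.7) and the regulator CFI (-0.65). CD59, which protects cells from complement, had the largest of the 2 rises (0.5), which made up 7.7% of the list, against 23.8%. C3 was at 8.27 ± 0.08 in melatonin-treated and 8.19 ± 0.04 in control cells (adjusted p = 0.255).

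Apolipoproteins were divided in the same way. Of 25 genes 11 fell (44.0%, against 27.4% of all genes) and 4 rose (16.0%, against 23.8%). APOC3, which slows the clearance of triglyceride-rich particles, was at 5.61, 5.6 and 5.63 in melatonin-treated cells, against 6.95, 6.95 and 6.9 in control cells (log2 fold change -1.32, adjusted p = 3.08e-07). APOA1, the main protein of high density lipoprotein, was at 9.53, 9.56 and 9.55 in melatonin-treated cells, against 10.14, 10.1 and 10.14 in control cells (log2 fold change -0.58). APOE was at 10.4, 10.4 and 10.47 in melatonin-treated cells, against 9.9, 10.02 and 9.97 in control cells (log2 fold change 0.46), so it was higher on every treated array while APOA1 was lower. Neither APOE nor APOA1 was called in the joint fit of all 4 lines (adjusted p = 0.187 and 0.391). MTTP, which loads lipid on apolipoprotein B, fell by 0.58, and APOB itself was at 6.79 ± 0.07 in melatonin-treated and 6.78 ± 0.06 in control cells (adjusted p = 0.848). Of 33 liver and endoderm transcription factors 14 rose (42.4%, against 23.8% of all genes) and 8 fell (24.2%, against 27.4%). CEBPB rose by 1.02, CEBPA by 0.65 and FOXA2 by 0.41, and PPARG fell by 0.68.

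**Figure D4:**
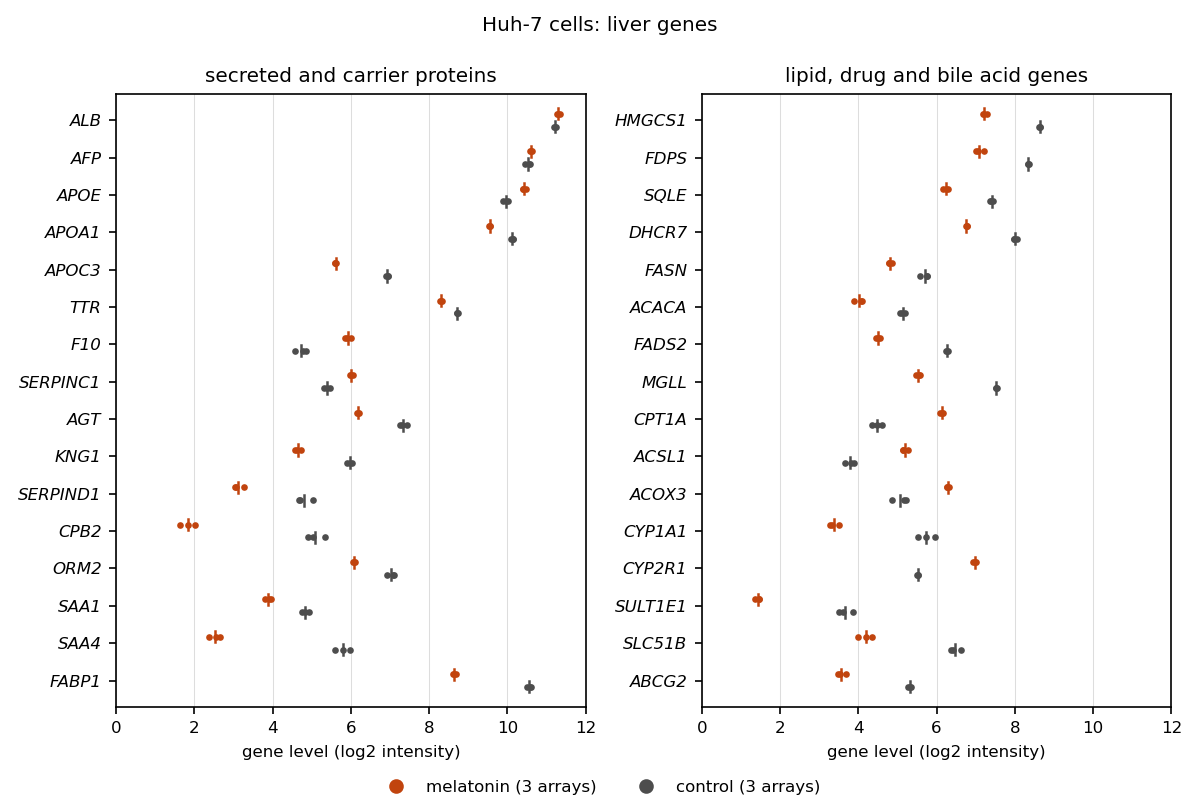
Levels of 16 secreted or carrier protein genes (left) and 16 lipid, drug and bile acid genes (right) in Huh-7 cells; the horizontal axis is the gene level (log2 intensity), each dot is 1 array, short vertical bars are group means, and melatonin-treated cells are drawn above control cells. The group means of ALB and AFP lie close together, and SAA4, CPB2, CYP1A1 and SULT1E1 are separated by more than 2 log2 units.

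Of 19 genes of melatonin handling 7 fell (36.8%, against 27.4% of all genes), 2 rose and 10 were not called, with a median log2 fold change of -0.04, against -0.06 over all genes. CYP1A1, a target of the aryl hydrocarbon receptor, was at 3.32, 3.51 and 3.28 in melatonin-treated cells, against 5.95, 5.52 and 5.73 in control cells (5.14-fold lower, log2 fold change -2.36, adjusted p = 9.4e-07). CYP1B1 fell by 0.7, and CYP1A2, the main hydroxylase of melatonin in liver, was at 3.35 ± 0.07 in melatonin-treated and 3.55 ± 0.08 in control cells (log2 fold change -0.2, adjusted p = 0.0265). That call was lost without melatonin array 1 (adjusted p = 0.09) and without control array 1 (0.067) or 2 (0.0861), and with its probe set of the highest mean (0.0659). SULT1E1, the estrogen sulfotransferase, was at 1.45, 1.46 and 1.36 in melatonin-treated cells, against 3.6, 3.5 and 3.85 in control cells (log2 fold change -2.23). The receptor genes MTNR1A and MTNR1B lay at 1.87 ± 0.11 in melatonin-treated and 1.87 ± 0.09 in control cells and at 1.43 ± 0.12 in melatonin-treated and 1.44 ± 0.15 in control cells, below the median level of all genes, and neither passed the test (adjusted p = 0.956 and 0.972). DDC, which makes serotonin from its precursor, fell by 1.91. The aryl hydrocarbon receptor gene AHR was at 6.43 ± 0.05 in melatonin-treated and 6.26 ± 0.1 in control cells (adjusted p = 0.0526) and its repressor AHRR rose by 0.35. AHR was called higher in several alternatives, among them its probe set of the highest mean (0.31, adjusted p = 0.00195) and the replicate block (0.0428).

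Of 58 phase I drug enzymes 23 fell (39.7%, against 27.4% of all genes) and 12 rose (20.7%, against 23.8%). Phase II enzymes lay near the share of all genes: of 38 phase II enzymes 11 fell (28.9%) and 6 rose. The alcohol dehydrogenase ADH1C (-1.31), the aldo-keto reductase AKR1B10 (-1.06) and the nicotinamide methyltransferase NNMT (-1.44) fell. CYP2R1, the vitamin D 25-hydroxylase, was at 6.98, 6.94 and 6.99 in melatonin-treated cells, against 5.52, 5.53 and 5.49 in control cells (log2 fold change 1.46), and SULT1C2 rose by 1.29. Of 31 bile acid genes 13 fell (41.9%) and 4 rose (12.9%). SLC51B, a subunit of the basolateral bile acid exporter, was at 4.2, 3.99 and 4.35 in melatonin-treated cells, against 6.36, 6.41 and 6.62 in control cells (log2 fold change -2.29), and ACOX2, an oxidase of bile acid synthesis, fell by 2.16. The efflux pumps ABCG2, ABCC4 and ABCC2 fell by 1.75, 0.99 and 0.79, and FGF19, the hormone that represses bile acid synthesis, by 1.38. KLB, the coreceptor for FGF19, went up by 0.97. CYP7A1, the rate-limiting enzyme, was also below that median, at 1.03 ± 0.05 in melatonin-treated and 1.07 ± 0.11 in control cells.

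Cholesterol and fatty acid synthesis were lower and parts of fatty acid oxidation higher. Of 30 genes of cholesterol synthesis and handling 17 fell (56.7%, against 27.4% of all genes), with a median log2 fold change of -0.439. The 7 that rose made up 23.3%, near the 23.8% of all genes. HMGCS1, an early enzyme of the mevalonate pathway, was at 7.18, 7.29 and 7.2 in melatonin-treated cells, against 8.63, 8.65 and 8.63 in control cells (log2 fold change -1.41, adjusted p = 3.08e-07). FDPS, DHCR7 and SQLE, later steps of the pathway, fell by 1.25, 1.24 and 1.18. The largest rises of this list were in SOAT1, which esterifies cholesterol (0.8), MYLIP, which degrades lipoprotein receptors (0.74), and INSIG2, which retains the sterol sensor (0.71). Of 35 genes of fatty acid and triglyceride synthesis 20 fell, among them the desaturase FADS2 (-1.76), the acetyl-CoA carboxylase ACACA (-1.11) and FASN (-0.89), as did the lipase MGLL, at 5.57, 5.54 and 5.47 in melatonin-treated cells, against 7.51, 7.55 and 7.53 in control cells (log2 fold change -2.0). Of 39 genes of fatty acid oxidation 17 rose (43.6%, against 23.8% of all genes) and 11 fell (28.2%, near the 27.4% of all genes). CPT1A, which admits fatty acids to mitochondria, was at 6.13, 6.17 and 6.08 in melatonin-treated cells, against 4.47, 4.61 and 4.36 in control cells (log2 fold change 1.65). FABP1, the liver fatty acid binding protein, had the largest fall of this list and was at 8.69, 8.63 and 8.6 in melatonin-treated cells, against 10.59, 10.57 and 10.5 in control cells (log2 fold change -1.92).

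Of 40 glycolysis and hypoxia genes 22 fell (55.0%, against 27.4% of all genes) and 9 rose (22.5%, near the 23.8% of all genes). The enolase ENO1 was at 9.9, 9.91 and 9.85 in melatonin-treated cells, against 10.88, 10.87 and 10.86 in control cells (log2 fold change -0.98). The hexokinase HK2 (-0.9) and the lactate dehydrogenase LDHA (-0.77) fell too. GAPDH was at 11.66 ± 0.04 in melatonin-treated and 11.68 ± 0.02 in control cells (adjusted p = 0.788). Of 31 gluconeogenesis and glycogen genes 9 rose, with the glycogen-targeting subunit PPP1R3E at 2.22 and the mitochondrial PCK2 at 1.32, and 4 fell. These shares were 29.0% higher and 12.9% lower, against 23.8% and 27.4% of all genes. Of 58 genes of the urea cycle and amino acid breakdown 23 fell and 11 rose. The tryptophan enzyme KYNU fell by 1.26, the histidine ammonia-lyase HAL by 1.12 and the urea cycle gene OTC by 0.88, and ARG2, the mitochondrial arginase, rose by 1.42. Of 72 respiratory chain subunits 37 fell and 8 rose (median -0.142), with the ATP synthase gene ATP5MC1 at -1.38 as the largest fall.

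Antioxidant genes were mostly lower. Of 43 NRF2 targets and antioxidant enzymes 27 fell and 8 rose. GPX2, a glutathione peroxidase of epithelia, was at 9.22, 9.16 and 9.1 in melatonin-treated cells, against 10.17, 10.16 and 10.21 in control cells (log2 fold change -1.02), and the quinone reductase NQO1 fell by 0.63. SLC7A11, which is also an ATF4 target, was the largest rise of this list. HMOX1, the heme oxygenase often used as an NRF2 marker, fell by 0.25. Of the iron genes the ferrireductase STEAP3 fell by 1.94 and the transferrin receptor TFRC by 0.97, while the exporter SLC40A1 rose by 0.54. MT2A, a metallothionein, rose by 1.16, and metallothionein genes are close copies whose probe sets may read each other.

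Of 39 genes that build glycosaminoglycans 19 rose and 5 fell. CSGALNACT2, which extends chondroitin sulfate chains, was at 5.4, 5.49 and 5.28 in melatonin-treated cells, against 3.84, 3.52 and 3.71 in control cells (log2 fold change 1.7). SULF2, which trims sulfate from heparan sulfate, rose by 1.46, and the heparan sulfate polymerase subunit EXT2 by 1.05, so the chain-building genes EXT2 and CSGALNACT2 were both higher on every treated array.

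The cytoskeleton and the epithelial surface changed in both directions. Apart from GSN, 23 of 43 actin and contractile genes fell, among them MYLK, the myosin light chain kinase (-1.19), TAGLN2 (-1.19), the microvillus gene VIL1 (-0.85) and ACTB (-0.28). The liver keratins KRT18 and KRT8 fell together, KRT18 being at 10.71, 10.73 and 10.71 in melatonin-treated cells, against 11.68, 11.7 and 11.7 in control cells (log2 fold change -0.98) and KRT8 at a log2 fold change of -0.85. KRT23 fell by 1.51 and KRT19 by 0.57. The adhesion genes CDH2 and CDH1 rose by 0.91 and 0.63, and of the tight junction genes OCLN rose by 0.87 and CLDN1 was at 7.7, 7.6 and 7.64 in melatonin-treated cells, against 8.66, 8.61 and 8.59 in control cells (log2 fold change -0.97). OCLN and CLDN1, both known as entry factors of the hepatitis C virus for which Huh-7 is a host, thus went opposite ways. Of 27 genes of epithelial-mesenchymal transition 5 rose, with VIM at 0.86 and ZEB1 at 0.73, and 5 fell, with S100A4 at -1.0 and SNAI1 at -0.65. That was 18.5% each way, below the shares of all genes (23.8% higher and 27.4% lower). The collagen gene COL2A1 fell by 1.37. The abundant beta tubulin TUBB fell by 0.88 and TUBA1B by 0.73, and TUBA1A rose by 1.39.

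Signaling genes changed in both directions. SPRY1, an inhibitor of growth factor signaling, fell by 1.07 and IER3 by 0.89, and MAPK3 (ERK1) fell by 0.81, while the phosphatase DUSP10 rose by 1.2 and the kinase MAPK8 (JNK1) by 0.86. In the ErbB list 4 of 17 genes rose, led by HBEGF (0.71), and 4 fell. That was 23.5% each way, near the shares of all genes (23.8% higher and 27.4% lower). Of 36 Wnt genes 10 rose and 10 fell, 27.8% each way, also near the shares of all genes. Among them the receptors FZD1 and FZD6 rose by 0.92 and 0.85, and the secreted inhibitors WIF1 (-1.2) and DKK1 (-0.75) fell. In the BMP and TGF-beta list 12 of 40 genes rose (30.0%) and 11 fell (27.5%). Of these INHBE (1.35), GDF15 (1.24) and the receptor ACVR1 (1.23) rose, and ID3 fell by 0.9. The YAP partner genes TEAD2 and TEAD4 fell by 1.0 and 0.92. The chemokines CXCL8 and CXCL10 fell by 0.89 and 0.66, and CXCL3 rose by 0.89. Interferon and antigen presentation genes lay near the shares of all genes, with 9 of 39 higher (23.1%) and 11 lower (28.2%). The antigen presentation gene HLA-E rose by 1.3 and the transcription factor STAT3 by 0.89. Of 21 clock genes 5 rose (23.8%) and 9 fell (42.9%). BMAL1 was at 4.34, 4.33 and 4.27 in melatonin-treated cells, against 3.05, 3.13 and 3.12 in control cells (log2 fold change 1.21). NR1D2 rose by 0.78, and the repressor PER2 fell by 0.62 and the activator NPAS2 by 0.7. For clock genes too, time in culture and melatonin cannot be told apart between cells labelled 24 h and 0 h.

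Cell death genes were divided. Of 23 BCL2 family genes 9 rose (39.1%, against 23.8% of all genes) and 6 fell (26.1%, against 27.4%). BBC3, PMAIP1 (0.91) and BCL2L11 (0.4, with 1 of its probe sets called lower), which promote death, rose, and BCL2L1, the survival gene BCL-XL, fell by 0.53. BID, which links death receptors to mitochondria, was at 6.21, 6.12 and 6.3 in melatonin-treated cells, against 7.5, 7.58 and 7.66 in control cells (log2 fold change -1.37), so members that promote death went both ways. BAX had a log2 fold change of -0.29 (adjusted p = 0.00136), but -0.04 (adjusted p = 0.612) with its probe set of the highest mean, and it was not called in the joint fit (0.673), so its call depends on the probe sets and on the fit. MLKL, the effector of necroptosis, was at 2.33, 2.55 and 2.41 in melatonin-treated cells, against 4.47, 4.28 and 4.53 in control cells (log2 fold change -2.0). The inhibitors BIRC2 and XIAP rose by 0.75 and 0.71, and BIRC5 (survivin), which is also a mitotic gene, fell by 0.7. Among tumor antigens of liver, the secreted trefoil peptide TFF1 fell by 1.67 and the stem cell marker PROM1 by 1.01, and GPC3 and SPINK1 rose by 0.39 and 0.69.

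Genes of the YPEL family, KLHL24 and long non-coding RNAs rose wherever they were called. Of 13 genes in a list that was, like the other lists, drawn up with earlier results of these data known, 11 rose and 0 fell. YPEL5, of the YPEL family, was at 7.8, 7.75 and 7.83 in melatonin-treated cells, against 5.47, 5.41 and 5.26 in control cells (log2 fold change 2.41). YPEL3 rose by 2.4 and KLHL24, a ubiquitin ligase adaptor that targets keratin 14, by 2.49. The nuclear RNA MALAT1 rose by 1.68 and ZFAS1, which hosts small nucleolar RNAs, by 1.21, with 1 probe set of ZFAS1 called lower. Of the chromatin genes the lamin gene LMNB1, whose loss marks senescent cells, was at 6.0, 5.88 and 5.99 in melatonin-treated cells, against 7.21, 7.21 and 7.21 in control cells (log2 fold change -1.25), TET1 fell by 1.28, and the deacetylase SIRT1 rose by 1.02. The polyamine enzyme SRM fell by 1.35, MYCN fell by 0.97, and the MYC antagonist MXD4 rose by 1.31.

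The response was set against the other lines by testing the difference of effects, since levels are not comparable between lines. Against HepG2, the other liver line, the effect differed in 2002 genes (11%), 977 with a higher and 1025 with a lower effect in Huh-7 cells. Without the first HepG2 melatonin array, which stood apart, it differed in 5478 genes. Against the mean of HGC-27 and HCT-8, the effect differed in 6734 genes (36.9%). These gut lines grew in another medium, so line and medium cannot be told apart in this contrast. Both differences were called with the same sign in 730 genes with a higher and 804 with a lower effect, and all of these remained so without the first HepG2 melatonin array, when 1814 higher and 1796 lower genes passed. Of the 730 genes 699 were called higher in Huh-7 cells itself, and of the 804 genes 737 were called lower. The comparisons share the Huh-7 arrays and are not independent.

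The 20 genes with the largest differences in both contrasts describe what was particular to Huh-7 cells by that test. GSN changed by 3.78 in Huh-7 cells, against -0.41 in HepG2, 0.58 in HGC-27 and 0.63 in HCT-8 cells (difference from HepG2 4.18, adjusted p = 3.57e-05, and from the gut lines 3.17, adjusted p = 4.1e-12). EPPK1 changed by 3.03, against -0.15 in HepG2, 0.04 in HGC-27 and 0.62 in HCT-8 cells (differences 3.18 and 2.7). NIBAN1, a stress-induced protein also called FAM129A, was at 4.58, 4.71 and 4.48 in melatonin-treated cells, against 1.97, 2.22 and 1.96 in control cells and changed by 2.54, against 0.03 in HepG2, 0.08 in HGC-27 and -0.03 in HCT-8 cells. SESN3 rose in all 4 lines but by more in Huh-7 cells, with differences of 2.26 from HepG2 and 2.36 from the gut lines. The other rises of this kind were in TPD52L1 (2.74), GPR37 (2.63), SLC16A14, of the monocarboxylate transporter family (2.77), the cyclic nucleotide-gated channel CNGA1 (2.39), LINC00847 (2.41) and PCLO, a synaptic scaffold (2.36). SAA4 changed by -3.26, against -0.8 in HepG2, -0.09 in HGC-27 and -0.14 in HCT-8 cells (differences -2.46 and -3.15). KRT15 changed by -2.53, against 0.23 in HepG2, -0.12 in HGC-27 and 1.07 in HCT-8 cells (differences -2.76 and -3.0). NOX1 changed by -2.78, against 0.1 in HepG2, -0.17 in HGC-27 and -0.47 in HCT-8 cells. DEFB1, PI3 and NAT8B fell in Huh-7 cells with differences of -2.46, -2.15 and -2.69 from HepG2. CA4, a membrane carbonic anhydrase, was at 6.44, 6.36 and 6.34 in melatonin-treated cells, against 8.4, 8.41 and 8.47 in control cells and changed by -2.05, against -0.01 in HepG2, 0.09 in HGC-27 and -0.09 in HCT-8 cells. PAQR5, a progesterone receptor of the membrane (-1.99), LRP8 (-2.22) and SLC51B (-2.29) complete the set. Several of these genes moved the same way elsewhere by less. SLC16A14 was called higher in all of the other lines (0.53 in HepG2, 0.45 in HGC-27 and 0.57 in HCT-8 cells), and SAA4 fell in HepG2 (adjusted p = 0.0141). Without the HepG2 array that stood apart SLC51B (-0.68, adjusted p = 0.00166, against -0.35 and 0.539 with it) and LRP8 (-0.36, adjusted p = 0.00485) fell there too. TPD52L1 then rose there (0.46, adjusted p = 0.0339). In both gut lines GSN was called higher and NOX1 lower. In HGC-27 cells GPR37 (0.81, adjusted p = 0.00262) and LINC00847 were called higher. In HCT-8 cells EPPK1 and CNGA1 were called higher, and NAT8B (-0.35, adjusted p = 0.00145) and LRP8 lower. PCLO in HGC-27 and KRT15 in HCT-8 cells were called in the opposite direction. By contrast CPB2, the second largest fall in Huh-7 cells, changed by -2.99 in HepG2, -0.14 in HGC-27 and 0.0 in HCT-8 cells, so the other liver line moved with it (difference from HepG2 -0.26, adjusted p = 0.501).

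**Figure D5:**
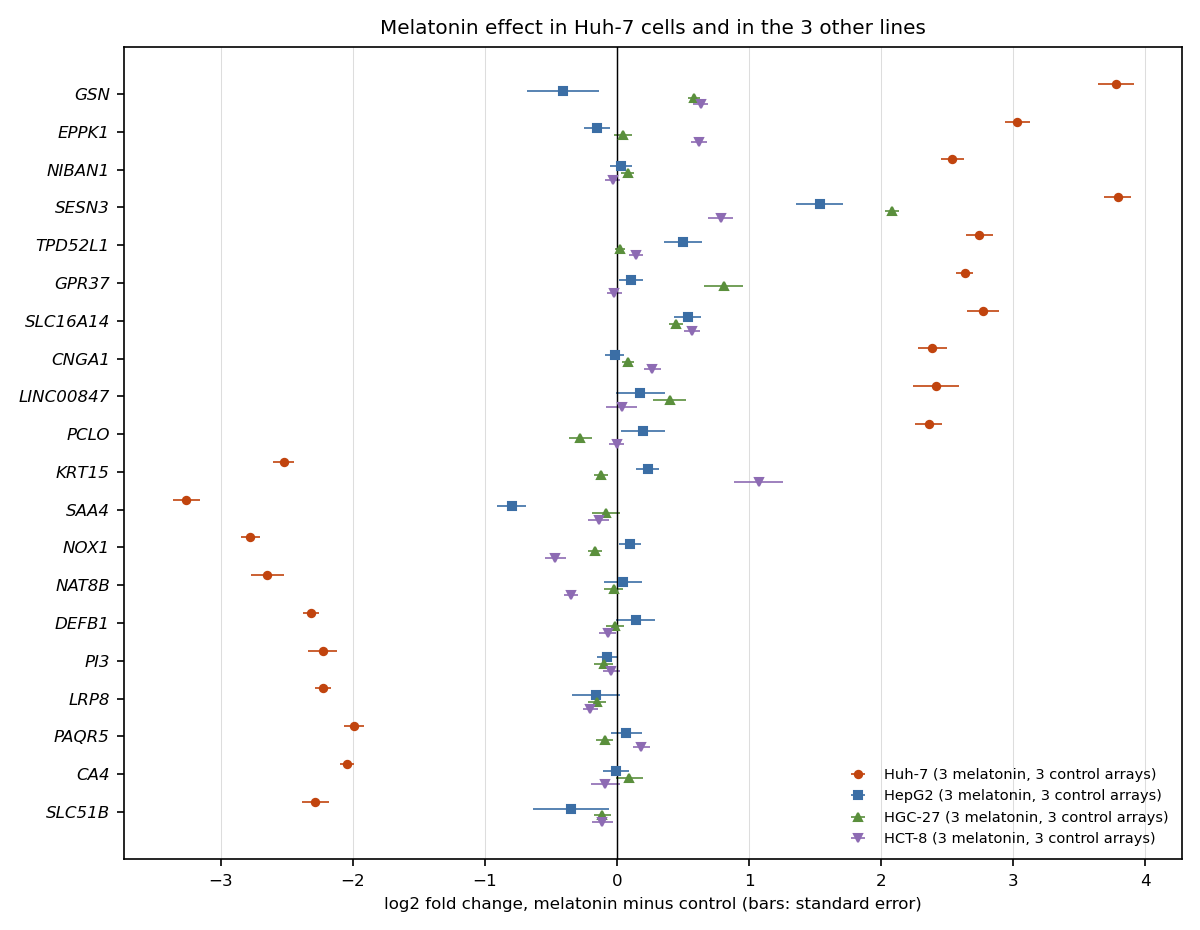
Log2 fold change (melatonin minus control, horizontal axis, with standard error) of the 20 genes whose effect in Huh-7 cells differed most from HepG2 and from the gut lines; each line has 3 melatonin and 3 control arrays, HepG2 including the array that stood apart. The Huh-7 points lie between 2.36 and 3.79 for the rises and between -1.99 and -3.26 for the falls, while most points of the other lines lie near 0.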

How the data were processed

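RNA of Huh-7 cells was hybridised to a customized Affymetrix PrimeView array by the authors, 3 arrays of melatonin-treated and 3 of control cells. The deposited values are log2 intensities per probe set that the authors had summarised and normalized with RMA, which can hide a shift of total RNA. As deposited, the lines were not on a common distribution. The array median over all probe sets was 2.13 to 2.15 in HCT-8 cells and 3.27 to 3.33 in Huh-7 cells. Beyond centring arrays on their medians, the effect of this on differences of fold changes between lines was not tested. Of 49495 probe sets, 45284 had exactly 1 gene symbol in the platform annotation, 1333 had several and 2878 had no gene listed. After 6 control probe sets were left out, 45278 were averaged to 18244 genes, of which 18201 symbols were in the RefSeq gene table. Melatonin and control arrays were compared with limma 3.58.1 in R 4.3.3 (two-sided, Benjamini-Hochberg over all 18244 genes, 5%), on the 6 arrays alone, and differences of effects between lines with interaction contrasts over 12 or 18 arrays. The script was tested on simulated data. An array gives no read depth, and the number of arrays limits the precision.

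Gene lists are described by counts and medians, with no test of a list. The members and lists were chosen with earlier results of these data known. Named genes were the 20 largest rises and falls, the members with the largest changes of each list, genes the study names, and the largest differences between lines, and further well known list members were chosen after their values were seen. Alternatives changed the probe set rule, filter, scaling, variance model, test, block and arrays used. Leaving out probe sets of cross-matching design was chosen after seeing the data.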

Additional observations from a re-analysis of the deposited data

Results flagged for a closer look

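The melatonin effect of 20 genes differed between Huh-7 cells and the other lines by a test of the difference itself, and each gene passed against HepG2 and against the mean of the gut lines. Each difference is the log2 fold change in Huh-7 cells minus that in HepG2, followed by the same against the gut lines. The effect was higher in Huh-7 cells for GSN by 4.18 and 3.17, EPPK1 by 3.18 and 2.7, NIBAN1 by 2.51 and 2.52, SESN3 by 2.26 and 2.36 and TPD52L1 by 2.24 and 2.66. It was likewise higher for GPR37 by 2.53 and 2.24, SLC16A14 by 2.24 and 2.26, CNGA1 by 2.41 and 2.21, LINC00847 by 2.24 and 2.2 and PCLO by 2.16 and 2.5. The effect was lower in Huh-7 cells, with negative differences, for KRT15 (-2.76 and -3.0), SAA4 (-2.46 and -3.15), NOX1 (-2.88 and -2.46), NAT8B (-2.69 and -2.46) and DEFB1 (-2.46 and -2.28), and for PI3 (-2.15 and -2.16), LRP8 (-2.06 and -2.05), PAQR5 (-2.06 and -2.04), CA4 (-2.04 and -2.05) and SLC51B (-1.93 and -2.17). Without the first HepG2 melatonin array, which stood apart, the differences from HepG2 were 3.85 for GSN, 2.46 for SESN3 and -2.56 for SAA4.

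Signal also appeared in probe sets that entered no comparison. Of 1333 probe sets with several gene symbols, 248 were higher and 263 lower in melatonin-treated Huh-7 cells, and of 2682 with no gene listed, 475 were higher and 515 lower.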

How the results depend on the processing

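Against 9340 called genes in Huh-7 cells, the alternatives that kept every size of change gave 6722 (arrays centred on the spike-in probe sets) to 10834 (arrays centred on their medians), and leaving out single arrays gave 8228 to 9040. The median centring moved the median of all genes to -0.12, against -0.06 as deposited. Only 2 of 100 spike-in probe sets lay above the median level, which limits that scaling. A minimum of 1.5-fold left 2946 genes, 1656 higher and 1290 lower. Same-numbered arrays of the 2 groups did not deviate together (correlations 0.0489, 0.0015 and 0.0583), so the numbers do not pair them, and the replicate block gave 9118 calls. With a replicate block in each line the difference from HepG2 was called in 1203 genes, against 2002 without it, and in 1351 to 5478 genes without single arrays. It was called in 5478 genes without melatonin replicate 1 of HepG2. The difference from the gut lines stayed between 6204 and 6750 genes without single arrays. Of 313 named genes that were called, 22 lost the call under 1 or more alternatives, and 5 of those not called gained it. RPS14 turned to 0.0719 with the probe set of the highest mean, and the cause was not tested. Changes of genes near background may be understated.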
